A study of Mus musculus with 9 samples.

Results

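The genes described here are 9 genes of the retinoic acid pathway: the binding protein genes Crabp1 and Crabp2, the short-chain dehydrogenase genes Dhrs9 and Dhrs3, the retinal dehydrogenase genes Aldh1a1, Aldh1a2 and Aldh1a3, and the receptor genes Rarb and Rarg. They were picked by symbol from 19937 genes measured on the arrays, and each was read by 1 probe set. The cells were MC3T3-E1 Subclone 4, a preosteoblast line from mouse calvaria. Every culture carried a lentiviral shRNA, either a scrambled control (Scr) or a hairpin against Runx2 (shRunx2), the transcription factor required for osteoblast formation, and infected cells were sorted by GFP. Scr day 0 cells were proliferating, while Scr day 9 and shRunx2 day 9 cells had been kept for 9 days in medium with ascorbic acid and beta-glycerophosphate, which starts osteogenic differentiation. Each of the 3 groups had 3 biological replicates, with 1 array each. No shRunx2 culture at day 0 was among the samples, and a single hairpin against Runx2 was used, so an effect of the hairpin sequence and one of Runx2 loss cannot be told apart. Time in culture, confluency and the osteogenic medium likewise cannot be told apart between day 0 and day 9.

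Retinoic acid is made from retinol in a pair of oxidation steps. Retinol dehydrogenases oxidize retinol to retinal and reductases turn it back, and retinal dehydrogenases then oxidize retinal irreversibly to retinoic acid. Inside the cell retinoic acid is carried by the Crabp proteins, broken down by Cyp26 enzymes, and bound by the nuclear receptors Rara, Rarb and Rarg, which pair with Rxr receptors on DNA. Retinoic acid is known to act on the growth and differentiation of skeletal cells.

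The labelled cell type was checked against osteoblast genes. Col1a1, the main collagen of bone, was at 13.53 to 13.59 in the 3 group means on the log2 scale of the arrays. At day 9 in Scr cells the alkaline phosphatase gene Alpl was 2.61-fold higher than at day 0 and Ibsp, a protein of the mineralizing matrix, was 13.6-fold higher. In shRunx2 cells both were lower than in Scr cells at day 9, by 1.68-fold for Alpl and 2.18-fold for Ibsp. Sp7, an osteoblast transcription factor, was 2.07-fold higher in Scr day 9 than in Scr day 0. It was 1.16-fold lower in shRunx2 than in Scr cells at day 9. Of 7 measured osteoblast markers, 4 rose and 3 were not called during differentiation, and 3 were lower and 4 not called in the knockdown. Runx2 itself is not analysed here. Of the markers of other cells, none of 5 adipocyte, 5 chondrocyte and 4 endothelial genes was called for differentiation or knockdown, and of 6 macrophage and leukocyte genes only Lyz2 was. On the log2 scale Lyz2 rose by 0.8 ± 0.087 with differentiation (adjusted p = 2.21e-05, limma) and was 0.42 ± 0.087 higher in shRunx2 than in Scr cells at day 9 (adjusted p = 0.0125), and array means of that list were 7.56 to 7.57 in Scr day 0, 7.67 to 7.71 in Scr day 9 and 7.74 to 7.79 in shRunx2 cells. Genes that respond to interferon moved with differentiation and with the knockdown. All 6 measured members were higher in Scr day 9 than in Scr day 0, and all 6 were higher in shRunx2 than in Scr cells at day 9. Array means of the list were 8.10 to 8.25 in Scr day 0, 9.21 to 9.54 in Scr day 9 and 10.84 to 11.02 in shRunx2 cells. The part of Lyz2 and of these genes in the retinoid results was not tested.

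Crabp2 and Aldh1a3 rose during differentiation and were lower after Runx2 knockdown, while Dhrs9 fell during differentiation and was higher after the knockdown. A gene is said here to have risen or fallen where the limma test gave an adjusted p under 0.05 over all 19937 genes, and changes are log2 differences of group means with the standard error (SE) of the fit. From Scr day 0 to Scr day 9, 2 of the 9 genes rose and 3 fell, against 14.5% and 17.1% of all genes. Between shRunx2 and Scr cells at day 9, 2 were higher and 3 lower in the knockdown, against 2.73% and 4.66% of all genes. The split of the latter between higher and lower varied with the processing and with single arrays. It was 544 genes higher and 930 lower in the values as deposited, and 752 and 817 after the arrays were quantile normalized again. After centring on array medians it was 533 and 882, and without replicate 1 of Scr day 9 it was 469 and 562. Between shRunx2 day 9 and Scr day 0, 4 of the 9 were higher and 3 lower, against 13.8% and 20.4% of all genes. The 9 genes were chosen with earlier results of these data known, so the shares of all genes give scale only and no enrichment was tested. The median change of the 9 genes was -0.014 for differentiation, 0.03 for the knockdown and 0.0063 between shRunx2 day 9 and Scr day 0, beside -0.016, -0.0041 and -0.0087 over all genes. The comparisons share arrays (Scr day 9 enters the first 2, for example), so the changes are given side by side and no relation between them is tested. Crabp2 was followed further in the study, at a fold cutoff below the 1.5-fold of its main responsive set. For Crabp2 the study also reported Runx2 binding within and around the gene, and quantitative PCR of its rise and its fall after knockdown. Reporter activity of bound regions near the gene rose with differentiation. That activity was lower with an inducible Runx2 hairpin, though not significantly for every region. Those experiments were not re-examined here. The study also counted Aldh1a3 and Dhrs9 as responsive to the knockdown on these samples. The calls of these genes are therefore not independent evidence of a direction. In the knockdown here Crabp2 (1.36-fold) and Aldh1a3 (1.41-fold) were under 1.5-fold, and Dhrs9 (1.81-fold) was above it.

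**Figure D1:**
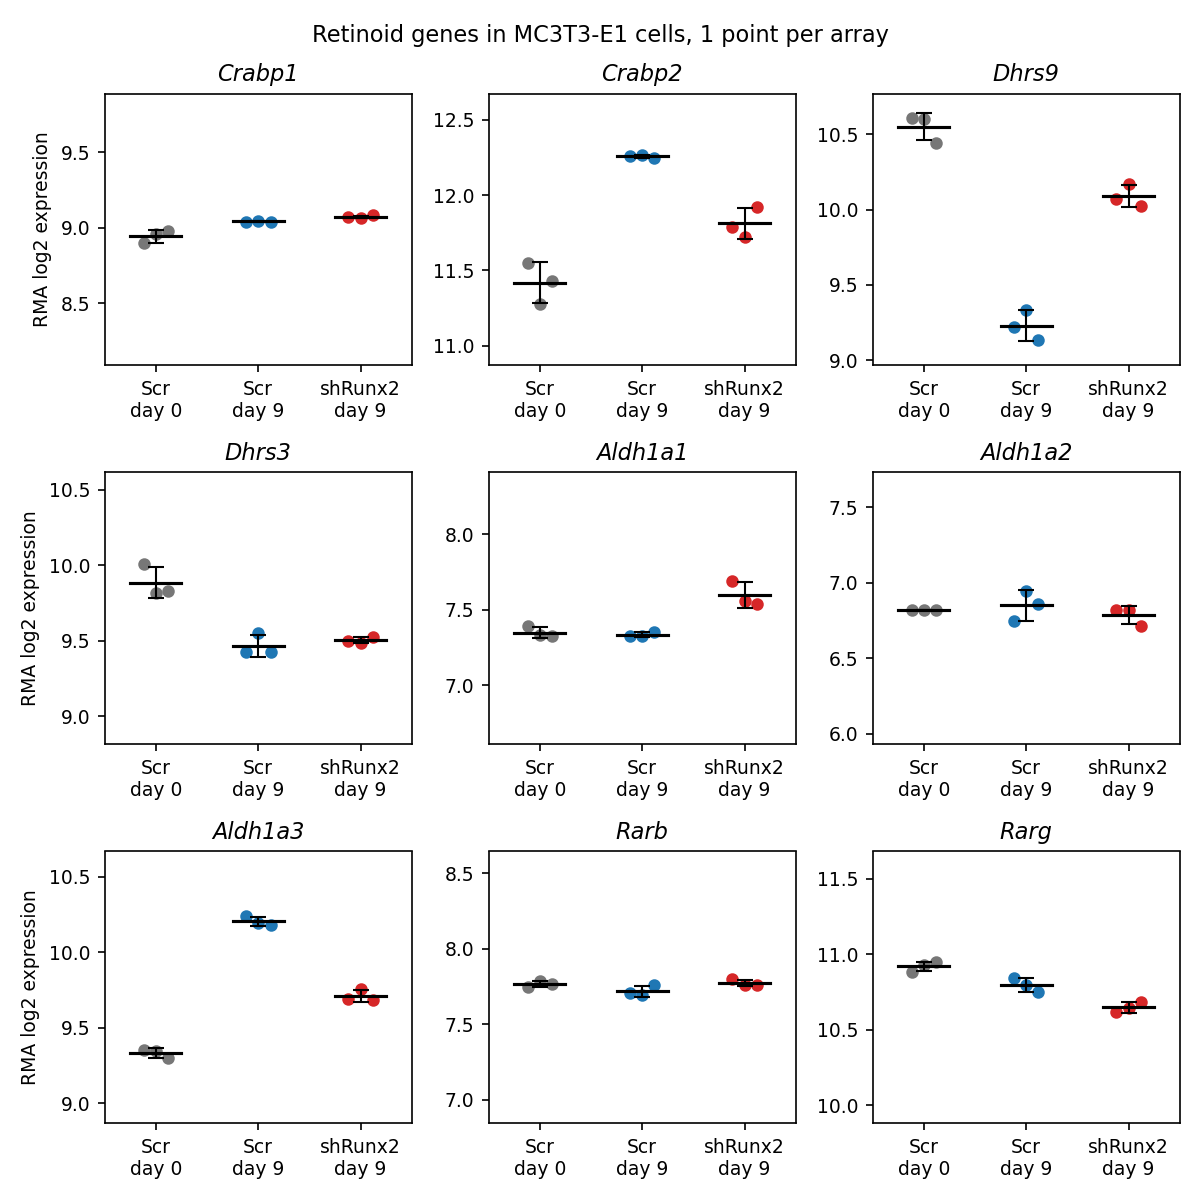
RMA log2 expression of the 9 genes, with 1 point for each of the 3 arrays of Scr day 0 (grey), Scr day 9 (blue) and shRunx2 day 9 (red). Horizontal bars are group means, error bars are the SD of 3 arrays, and every panel spans the same log2 range, so the wide separation of Dhrs9 (group means 10.55, 9.23 and 10.09) can be set against the narrow one of Rarb (7.69 to 7.80 over all arrays).

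Crabp2, which carries retinoic acid to its receptors in the nucleus, rose during differentiation. Its log2 level was 11.55, 11.28 and 11.43 in the Scr day 0 arrays, 12.26, 12.27 and 12.25 in Scr day 9, and 11.79, 11.72 and 11.92 in shRunx2 day 9. The 3 groups did not overlap, Scr day 9 was highest and shRunx2 lay between the Scr groups. The rise from day 0 to day 9 was 0.84 ± 0.067 (SE, n = 3 arrays per group), or 1.79-fold (adjusted p = 1.95e-06). After the knockdown Crabp2 was lower by 1.36-fold (-0.44 ± 0.067, adjusted p = 0.00198), and it stayed above Scr day 0 by 1.31-fold (0.39 ± 0.067, adjusted p = 0.000655). In cultures profiled as a whole, fewer cells that express a gene and less RNA of it per cell cannot be told apart.

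Crabp1, the related protein thought to hold retinoic acid in the cytoplasm, moved far less. It was at 8.90, 8.95 and 8.98 in Scr day 0, at 9.04, 9.05 and 9.04 in Scr day 9, and at 9.07, 9.06 and 9.08 in shRunx2 cells. The groups did not overlap but lay close together. The knockdown difference did not pass the test (0.03, 95% interval -0.046 to 0.11, adjusted p = 0.705), nor did the difference between Scr day 9 and Scr day 0 (0.097, interval 0.021 to 0.17, adjusted p = 0.0532). The latter passed without replicate 3 of Scr day 0 (adjusted p = 0.041). Against Scr day 0, shRunx2 cells were 1.09-fold higher (0.13 ± 0.035, adjusted p = 0.013), a call lost after renewed quantile normalization (adjusted p = 0.052) or centring on array medians (adjusted p = 0.0619).

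Of the enzymes that act between retinol and retinal, Dhrs9, a dehydrogenase that oxidizes retinol among other substrates, showed the largest range of group means of the 9 genes, 1.32 on the log2 scale. Its arrays read 10.60, 10.60 and 10.44 in Scr day 0, 9.22, 9.34 and 9.13 in Scr day 9, and 10.07, 10.17 and 10.02 in shRunx2 day 9. The groups did not overlap, and here Scr day 9 was lowest with shRunx2 again between the Scr groups. Dhrs9 fell by 2.49-fold over 9 days of differentiation (-1.32 ± 0.063, adjusted p = 2.42e-08). It was 1.81-fold higher in shRunx2 than in Scr cells at day 9 (0.86 ± 0.063, adjusted p = 1.02e-05) and 1.38-fold lower than in Scr day 0 (-0.46 ± 0.063, adjusted p = 0.00012).

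Dhrs3, which reduces retinal back to retinol and is known to be induced by retinoic acid, fell with differentiation but was not called in the knockdown. The log2 values were 10.01, 9.82 and 9.83 in Scr day 0, 9.42, 9.55 and 9.42 in Scr day 9, and 9.50, 9.48 and 9.52 in shRunx2 cells. All day 9 arrays of either hairpin lay below all day 0 arrays, and those of the day 9 groups overlapped. The fall from Scr day 0 was 1.34-fold in Scr day 9 (-0.42 ± 0.055, adjusted p = 0.0001) and 1.3-fold in shRunx2 (-0.38 ± 0.055, adjusted p = 0.000176). The difference between the day 9 groups was 0.036 (95% interval -0.085 to 0.16, adjusted p = 0.791).

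Promoter sequence is shown for these enzymes because one moved with the knockdown and the other was not called. The Runx motif, TGTGGT, was searched on both strands of RefSeq promoters (assembly GRCm38.p6), each running from 250 bases before to 50 bases after a transcription start. It occurs in 16.8% of 32817 promoters of this length. Of the 9 genes, 7 had promoters in that set, 11 in all. Crabp2 and Aldh1a3 had no promoter entry there, so theirs were not searched. The motif is in 3 of the 11, and is in capitals below. The Dhrs9 promoter, chr2:69380212-69380511 on the + strand, has no match. The Dhrs3 promoter, chr4:144892827-144893126 on the + strand, has 3, which begin 158, 143 and 12 bases before the start, and of the other Dhrs3 promoters, which overlap it, 1 holds the same matches and 1 has none. A match describes the letters only and not a bound site. The study placed most of its Runx2 peaks outside promoters, and sequence beyond this window was not searched.
Dhrs9: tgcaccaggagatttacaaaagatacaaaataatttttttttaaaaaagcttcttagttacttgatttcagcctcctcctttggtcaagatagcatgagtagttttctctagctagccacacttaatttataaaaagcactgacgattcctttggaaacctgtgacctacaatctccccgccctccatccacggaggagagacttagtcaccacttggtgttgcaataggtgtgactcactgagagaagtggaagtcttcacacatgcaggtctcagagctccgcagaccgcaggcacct
Dhrs3: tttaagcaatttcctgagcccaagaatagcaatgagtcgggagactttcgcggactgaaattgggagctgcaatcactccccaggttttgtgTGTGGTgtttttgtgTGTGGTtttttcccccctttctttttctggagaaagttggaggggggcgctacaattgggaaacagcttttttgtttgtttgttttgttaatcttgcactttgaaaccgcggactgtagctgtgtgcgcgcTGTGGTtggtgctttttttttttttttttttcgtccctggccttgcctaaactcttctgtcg

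Among the retinal dehydrogenases, which make retinoic acid, Aldh1a3 rose with differentiation and was lower in the knockdown. It was at 9.35, 9.35 and 9.30 in Scr day 0, 10.24, 10.20 and 10.18 in Scr day 9, and 9.69, 9.75 and 9.68 in shRunx2 day 9. The groups were again separate, in the same order as for Crabp2. Its rise during differentiation was 1.83-fold (0.87 ± 0.037, adjusted p = 1e-08). In shRunx2 cells it was 1.41-fold lower than in Scr cells at day 9 (-0.5 ± 0.037, adjusted p = 1.13e-05) and 1.3-fold above Scr day 0 (0.38 ± 0.037, adjusted p = 8.93e-06).

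Aldh1a1 was higher in the knockdown, with levels of 7.39, 7.33 and 7.33 in Scr day 0, 7.33, 7.33 and 7.35 in Scr day 9, and 7.69, 7.56 and 7.54 in shRunx2 cells. The shRunx2 arrays lay above all Scr arrays, while the Scr groups overlapped. All these levels were under the array medians of all probe sets, 8.416 to 8.51, so the signal was low. Against Scr day 9 the difference was 1.2-fold (0.26 ± 0.045, adjusted p = 0.0043) and against Scr day 0 it was 1.19-fold (0.25 ± 0.045, adjusted p = 0.000965). Between the Scr groups it was -0.014 (95% interval -0.11 to 0.085, adjusted p = 0.87). Aldh1a7, a close paralog whose probes could read the same transcripts, was also higher on all shRunx2 arrays than on all Scr day 9 arrays, by 0.19 ± 0.066, without passing the test (adjusted p = 0.123). The Aldh1a7 means, 6.23 in shRunx2 and 6.03 in Scr day 9, were lower still than the levels of Aldh1a1. Whether the Aldh1a1 probe set reads Aldh1a1 alone was not tested.

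Aldh1a2, the main retinal dehydrogenase of the early embryo, was called in none of the comparisons. It read 6.82 on all Scr day 0 arrays, 6.74, 6.95 and 6.86 in Scr day 9, and 6.82, 6.82 and 6.71 in shRunx2 cells. As for Aldh1a1, these levels were under the array medians of all probe sets, so the signal was low. The same value stood on 5 of the 9 arrays, and 5.68% of all genes share a value across 5 or more arrays. The difference was 0.027 for differentiation (95% interval -0.087 to 0.14, adjusted p = 0.764) and -0.063 for the knockdown (interval -0.18 to 0.051, adjusted p = 0.579).

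Of the receptors, Rarg, a retinoic acid receptor known for its expression in cartilage and skin, was lowest in the knockdown. Its values were 10.88, 10.93 and 10.95 in Scr day 0, 10.84, 10.79 and 10.75 in Scr day 9, and 10.61, 10.65 and 10.69 in shRunx2 cells. The groups did not overlap, though the gaps were small. Rarg was 1.21-fold lower in shRunx2 than in Scr day 0 (-0.27 ± 0.039, adjusted p = 0.000189). The separate steps were near the threshold, at -0.12 ± 0.039 from Scr day 0 to Scr day 9 (adjusted p = 0.0336) and -0.15 ± 0.039 from Scr to shRunx2 at day 9 (adjusted p = 0.0443). With replicate number as a block these became 0.0538 and 0.0723. The knockdown call was lost without replicate 2 (adjusted p = 0.0678) or 3 (0.0524) of Scr day 0, replicate 1 (0.13) or 2 (0.133) of Scr day 9, or replicate 1 (0.161), 2 (0.107) or 3 (0.0605) of shRunx2. The differentiation call was lost without replicate 2 (0.0902) or 3 (0.101) of Scr day 0, or 2 (0.0853) or 3 (0.117) of Scr day 9.

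Rarb, a receptor gene that retinoic acid itself induces through an element in its promoter, was not called in any comparison. It was at 7.75, 7.78 and 7.76 in Scr day 0, 7.70, 7.69 and 7.76 in Scr day 9, and 7.80, 7.76 and 7.76 in shRunx2 cells. These levels too were under the array medians of all probe sets, 8.416 to 8.51, so the signal was low. Its differences were -0.048 for differentiation (95% interval -0.13 to 0.029, adjusted p = 0.369) and 0.054 for the knockdown (interval -0.023 to 0.13, adjusted p = 0.458).

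The Rarb promoter is shown because retinoic acid receptors are known to bind direct repeats, and the Rarg promoter because it holds a Runx motif. The repeat searched was a pair of half-sites with 5 bases between them, on both strands. A half-site was AGGTCA or its common variant AGTTCA, or the form that begins with G in place of A, GGGTCA for the first and GGTTCA for the variant. It is in 0.0975% of the 32817 promoters and, of the 11 searched for the 9 genes, only in that of Rarb. The repeat covers 17 bases from 53 bases before the start of that promoter, at chr14:16575427-16575726 on the - strand, and is in capitals. It shares no bases with the Runx motif, which that promoter lacks. The Rarg promoter, chr15:102246451-102246750 on the - strand, has 1 TGTGGT, in capitals, from 160 bases before the start, and the other Rarg promoter has none.
Rarb: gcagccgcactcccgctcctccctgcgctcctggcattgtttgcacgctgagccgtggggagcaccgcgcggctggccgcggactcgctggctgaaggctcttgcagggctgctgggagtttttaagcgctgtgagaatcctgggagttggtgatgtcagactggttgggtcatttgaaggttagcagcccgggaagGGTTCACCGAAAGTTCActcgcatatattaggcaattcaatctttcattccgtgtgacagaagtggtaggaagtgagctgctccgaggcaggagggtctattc
Rarg: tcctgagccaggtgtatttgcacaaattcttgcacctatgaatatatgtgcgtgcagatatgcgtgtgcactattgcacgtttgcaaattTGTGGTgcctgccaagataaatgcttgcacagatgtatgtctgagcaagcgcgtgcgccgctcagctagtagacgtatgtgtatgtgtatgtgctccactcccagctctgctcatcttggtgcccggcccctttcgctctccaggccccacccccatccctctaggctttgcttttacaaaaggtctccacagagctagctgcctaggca

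**Figure D2:**
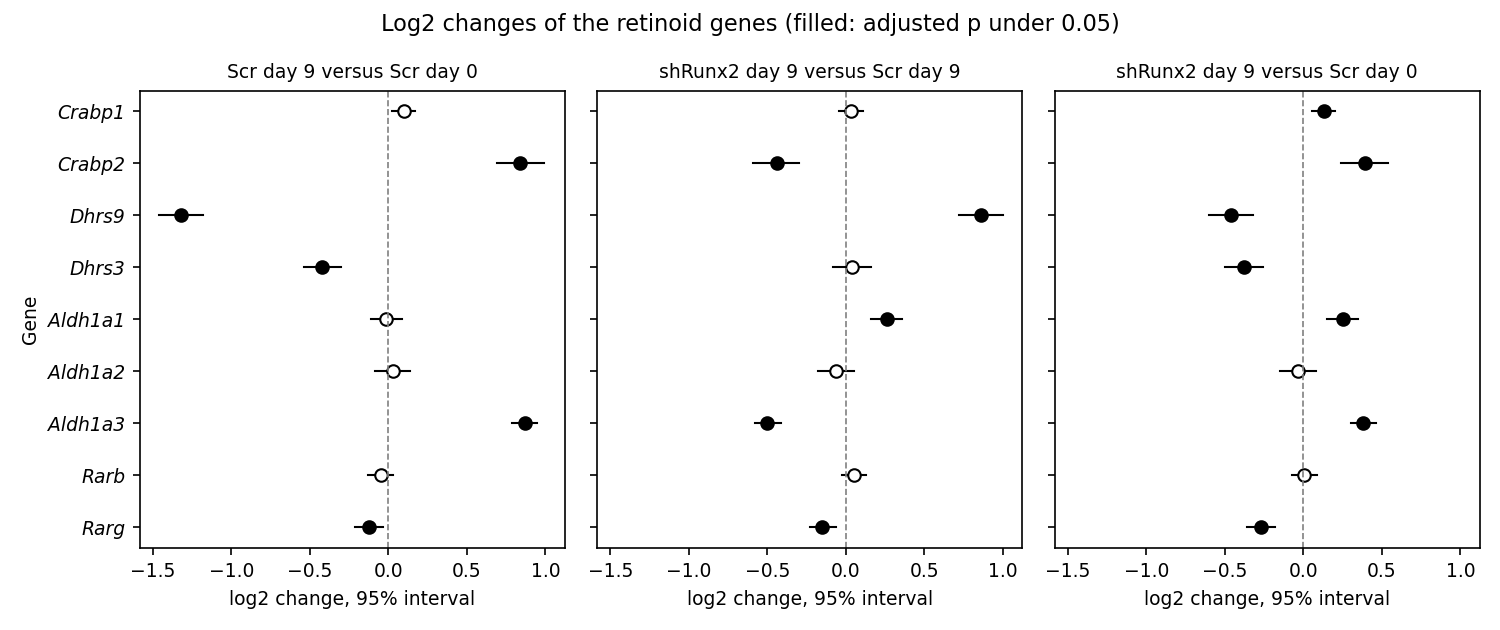
Log2 change of each of the 9 genes in the 3 comparisons, with bars for the 95% interval and filled points where the adjusted p was under 0.05. Crabp2 and Aldh1a3 lie to the right for differentiation (0.84 and 0.87) and to the left for the knockdown (-0.44 and -0.5), and Dhrs9 lies the other way (-1.32 and 0.86).

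Other genes of the pathway were read from lists ordered by role, which held 43 further genes, of which 40 were measured. During differentiation 5 of the 40 rose, 11 fell and 24 were not called, with a median change of -0.043. In the knockdown 1 was lower (Adh7), none was higher and 39 were not called, with a median of -0.013. The values are to be read against the shares of all genes called given above.

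Of 3 measured alcohol dehydrogenases, enzymes that can oxidize retinol, Adh1 and Adh7 rose during differentiation, and Adh5 was not called (0.12, adjusted p = 0.0707). Adh1 went from 8.09, 7.78 and 7.93 in Scr day 0 to 10.97, 10.79 and 10.73 in Scr day 9, a 7.45-fold rise (2.9 ± 0.083, adjusted p = 3.73e-10). Its shRunx2 arrays, at 10.92, 10.81 and 10.99, overlapped those of Scr day 9, with a difference of 0.077 (95% interval -0.1 to 0.26, adjusted p = 0.685).

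Adh7 rose 2.03-fold with differentiation (1.03 ± 0.045, adjusted p = 1.34e-08). In shRunx2 cells it was 1.13-fold lower than in Scr day 9 (-0.18 ± 0.045, adjusted p = 0.0393). That call was lost without replicate 2 of Scr day 0 (adjusted p = 0.0623), replicate 1 (0.128) or 2 (0.107) of Scr day 9, or replicate 1 (0.0962), 2 (0.13) or 3 (0.0591) of shRunx2. It was also lost over every probe set (0.107), with only the 2 groups compared (0.0535), after renewed quantile normalization (0.0587) and after centring on array medians (0.0551), so in 10 of 17 alternatives. Rdh14 also rose in Scr cells (0.28 ± 0.059, adjusted p = 0.00307), and Rdh13 fell (-0.15 ± 0.039, adjusted p = 0.0112). With Dhrs9 and Dhrs3, 4 of the 14 genes of retinol and retinal interconversion rose and 5 fell during differentiation. The shares of all genes were 14.5% and 17.1%. Rdh10, the retinol dehydrogenase essential in the embryo, was not called, with changes of -0.12 for differentiation and -0.0039 for the knockdown.

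Among the binding and transport genes, Fabp5, which can carry retinoic acid as well as fatty acids, fell 2.13-fold during differentiation (-1.09 ± 0.053, adjusted p = 2.71e-08), against the rise of Crabp2. It was not called in the knockdown (-0.094, adjusted p = 0.382). The other measured genes of this list, Rbp2, Rbp4, Rbp7, Stra6, Stra6l, Ttr and Crabp1, were not called in either comparison. Of the storage genes, Dgat1 fell with differentiation (-0.28 ± 0.041, adjusted p = 0.000219) and Lrat, which esterifies retinol, was not called.

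The Cyp26 genes, whose enzymes break down retinoic acid, were called in none of the comparisons. Cyp26a1 differed by 0.042, Cyp26b1 by 0.024 and Cyp26c1 by -0.014 between Scr day 0 and Scr day 9, and by -0.012, -0.0015 and 0.018 in the knockdown, all without passing the test. Adjusted p was 0.591, 0.717 and 0.82 in the first comparison.

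Receptors other than the members fell or were not called. Rara (-0.33 ± 0.049, adjusted p = 0.000288), Rxra (-0.25 ± 0.039, adjusted p = 0.000451) and Ppard, which Fabp5 can serve (-0.25 ± 0.048, adjusted p = 0.00162), fell during differentiation. With Rarg, 4 of 7 receptor genes fell and none rose, against 17.1% and 14.5% of all genes. The Rarg call for differentiation was lost in 8 of 17 alternatives, and the list was not tested as a set. In the knockdown Rara was at -0.015 (95% interval -0.12 to 0.093, adjusted p = 0.914), Rxra at -0.1 (adjusted p = 0.184) and Ppard at -0.093 (adjusted p = 0.332). Of 7 measured coregulator genes, Ncoa1 rose (0.21 ± 0.045, adjusted p = 0.00327), Ncoa3 (-0.29 ± 0.043, adjusted p = 0.000281), Ep300 (-0.29 ± 0.057, adjusted p = 0.00187) and Nrip1 (-0.28 ± 0.053, adjusted p = 0.0015) fell, and none was called in the knockdown.

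**Figure D3:**
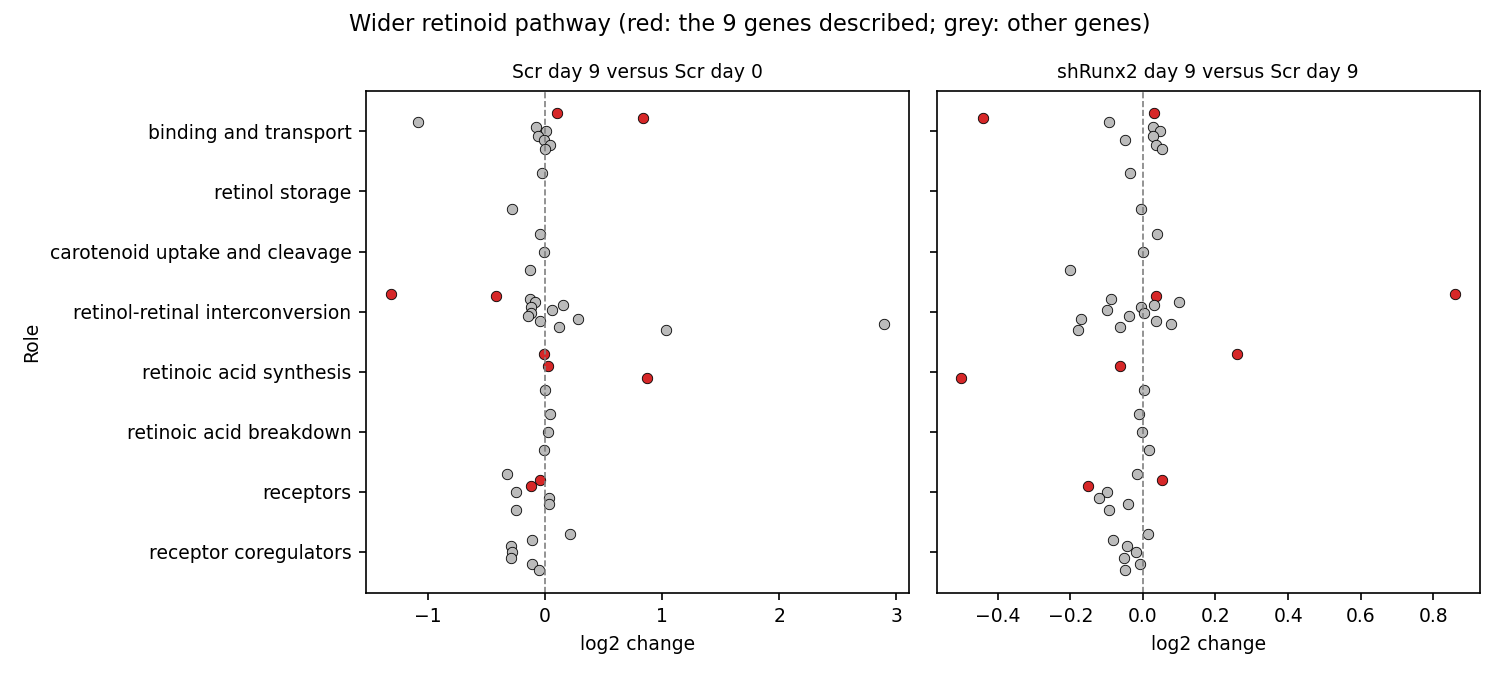
Log2 change of the 9 genes (red) and of 40 other measured genes of the retinoid pathway (grey) by role, for differentiation (left) and knockdown (right), with different horizontal scales. Adh1 is the point at 2.9 on the left, and on the right Dhrs9 at 0.86, Aldh1a3 at -0.5 and Crabp2 at -0.44 lie farthest from 0.

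Genes known to be induced by retinoic acid did not move one way. Of 18 measured, which include Crabp2, Dhrs3 and Rarb, 4 rose and 4 fell during differentiation, against 14.5% and 17.1% of all genes. In the knockdown 1 was higher and 2 were lower, against 2.73% and 4.66% of all genes. The list was not tested as a set. Meis2, a homeobox transcription factor, was at 10.40, 10.31 and 10.29 in Scr day 0, 11.45, 11.37 and 11.34 in Scr day 9 and 11.09, 11.09 and 11.10 in shRunx2 cells. Like Crabp2 it rose with differentiation (2.08-fold, 1.05 ± 0.042, adjusted p = 6.15e-09) and was lower in the knockdown (1.22-fold, -0.29 ± 0.042, adjusted p = 0.00151).

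Tgm2, which encodes a transglutaminase, went the other way, as Dhrs9 did. Its arrays read 11.76, 11.78 and 11.86, then 11.50, 11.47 and 11.53, and in shRunx2 cells 11.88, 11.91 and 11.98. It fell during differentiation (-0.3 ± 0.042, adjusted p = 0.000166) and was higher in the knockdown by 1.34-fold (0.43 ± 0.042, adjusted p = 8.85e-05), where the shRunx2 arrays also lay above those of Scr day 0. The nuclear receptor Nr2f2 fell 1.6-fold with differentiation (-0.68 ± 0.048, adjusted p = 6.87e-07) and Rarres2, the gene of the secreted protein chemerin, rose 1.65-fold (0.72 ± 0.057, adjusted p = 1.64e-06). Neither was called in the knockdown (0.066, adjusted p = 0.521, and 0.17, adjusted p = 0.113).

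To find the genes most like Crabp2, Aldh1a3 and Dhrs9, each gene was centred on its own mean and the root mean square difference over the 9 arrays was taken. Nearest to Crabp2 were Tlcd1 (0.068), Asphd2 (0.076) and Fkbp14 (0.088). Nearest to Aldh1a3 were Tlcd1 (0.054) and Asphd2 (0.066) as well, followed by Mitf (0.067), a transcription factor of melanocytes and osteoclasts, whose group means were 8.64, 9.62 and 9.10. Crabp2 and Aldh1a3 had 2 of their 3 nearest genes in common.

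Dhrs9 had no gene as near, but the measure is in log2 units and is not scaled to a gene's range. The range of group means of Dhrs9, 1.32, was wider than those of Crabp2 (0.84) and Aldh1a3 (0.87). Gatm, an enzyme of creatine synthesis, was at 0.113 with group means of 11.63, 10.51 and 11.30 in Scr day 0, Scr day 9 and shRunx2 cells. Cldn1, a tight junction claudin, followed at 0.141 (means 11.06, 10.01 and 10.84) and Arhgap29, a GTPase-activating protein, at 0.174 (means 10.97, 9.30 and 10.34). These genes were ranked on the same arrays and the likeness is a description.

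**Figure D4:**
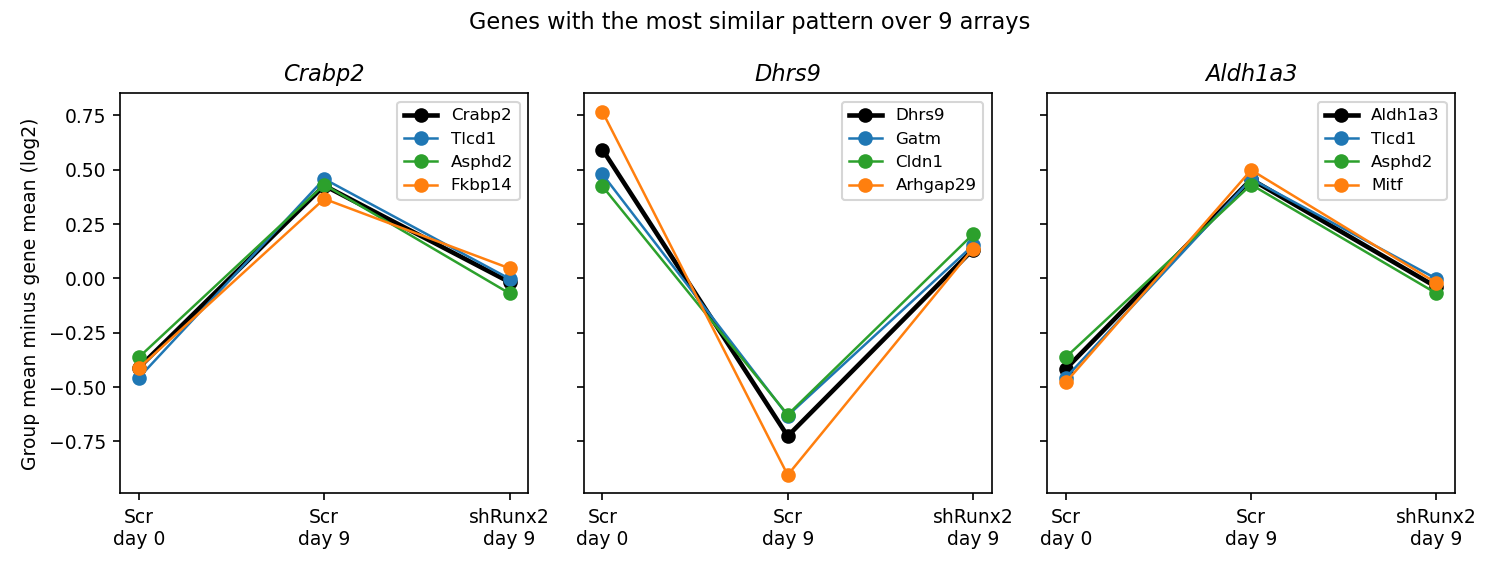
Group means minus the gene's own mean (log2) for Crabp2, Dhrs9 and Aldh1a3 (black) and the 3 genes nearest to each over 9 arrays (colours). Tlcd1, at 0.068 from Crabp2 and 0.054 from Aldh1a3, runs close to both, and Arhgap29, at 0.174 from Dhrs9, spans a wider range than Dhrs9.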

How the data were processed

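Total RNA of 9 MC3T3-E1 cultures was measured with 1 Affymetrix Mouse Gene 1.0 ST array for each. The deposited values are log2 expression values that the authors made with RMA (background correction, quantile normalization and median polish of each probe set); the submitters' processing notes name both RMA and limma. Precision is set by the number of arrays. Array medians of the 34760 probe sets ran from 8.416 to 8.51, the lowest correlation between arrays of a group was 0.9981, and no arrays were identical. A filter that the study's methods mention is not described there.

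Genes were named from the platform annotation, which gave 1 symbol to 21640 probe sets, several to 1321 and none to 11799. Only the first were used, and where a gene had more than 1 (954 genes) its probe set of highest mean stood for it, leaving 19937 genes. Of these, 19855 were found in a RefSeq gene table (GRCm38.p6) with no change of symbol. That build was used for names and promoters, and no build is named for the deposited values.

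Differences were tested two-sided with lmFit and eBayes of limma 3.58.1 (R 4.3.3), in 1 model of group means over all 9 arrays, with Benjamini-Hochberg adjustment over all genes, at adjusted p under 0.05. The fit was tested on simulated data. Groups were taken from the sample labels, which call the samples biological replicates without saying how cultures were separated, so p-values measure the spread between these samples. Named genes were the 9 members, up to 4 others of each retinoid list with the smallest adjusted p under 0.05 in the differentiation or knockdown comparison, the 3 genes most like each of Crabp2, Aldh1a3 and Dhrs9, and 4 osteoblast genes. Aldh1a7, Lyz2, Rdh10, Adh5, the Cyp26 genes and the uncalled binding and storage genes were named outside this rule, after their values were seen. The members, lists and tests were chosen with earlier results of these data known. Alternatives covered scaling, filtering, weighting, the replicate number as a block and leaving out each array. Runx2 and a few listed genes are not analysed here.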

Additional observations from a re-analysis of the deposited data

How the results depend on the processing

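The number of the 9 genes called was 4 to 5 in the knockdown (5 as reported), 4 to 6 for differentiation (5) and 6 to 7 between shRunx2 day 9 and Scr day 0 (7) over 17 alternatives. With the replicate number as a block it was 4, 4 and 7. The changes of Crabp2, Aldh1a3 and Dhrs9 kept their direction and their call in all 3 comparisons under all 17, and Aldh1a1 in both of its calls under the 16 that kept it. Adjusted p for the knockdown ranged from 0.000483 to 0.0173 for Crabp2, from 1.7e-06 to 0.000351 for Aldh1a3, from 1.08e-06 to 0.000452 for Dhrs9 and from 0.000995 to 0.0246 for Aldh1a1. The Rarg call was lost in 12 of 17 alternatives for the knockdown (adjusted p 0.0151 to 0.161) and in 8 of 17 for differentiation (0.00554 to 0.157). Of 450 values of the 9 genes' changes under an alternative, 416 kept direction and side of the threshold, 22 lost their call, 3 gained one, all for Crabp1 in differentiation (adjusted p 0.0316 with genes under the median level left out, 0.021 with array weights and 0.041 without replicate 3 of Scr day 0), and 9 turned direction. All 9 were changes that had not passed the test, and the cause was not tested. Aldh1a1 in differentiation ran from -0.026 to 0.0062 with 1 array left out, and Aldh1a2 from -0.021 to 0.08 (-0.006 after centring on array medians). Dhrs3 in the knockdown was -0.011 with array weights. Rarb between shRunx2 day 9 and Scr day 0, 0.0063 as reported, was -0.014 after renewed quantile normalization, -0.029 after centring, -0.0016 with array weights and from -0.0065 to 0.016 with 1 array left out. Over all genes, 1474 were called in the knockdown, 2590 with array weights, 858 without replicate 2 of Scr day 9 and 919 without replicate 1 of shRunx2.

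Replicate numbers were not treated as pairs in the main fit. Deviations of same-numbered arrays correlated at -0.114 to 0.294 over 9 pairs and those of other numbers at -0.293 to 0.115 over 18. The ranges overlap, with that of the same numbers lying higher, and whether same-numbered cultures were paired was not tested. No member had several probe sets, so that choice changed no level, and Aldh1a1, Aldh1a2 and Rarb left the test with the level filter. Small differences are limited by 3 arrays per group and by tied RMA values: 49.6% of genes shared a value between 2 or more arrays.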
